A study of Mus musculus with 4 samples.

Results

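Described here are 9 genes of the tight junction: the claudins Cldn1, Cldn3, Cldn4, Cldn6 and Cldn7, the membrane proteins Ocln and F11r, and the scaffold proteins Tjp1 and Tjp3. They were taken by name from the probes of a whole-mouse-genome array, with renamed genes found through their RefSeq identifier. That gave 9 genes and 12 probes, of 27670 gene names and 41174 probes. The cells were 4TO7, a mouse mammary tumour line of BALB/cfC3H origin, carried as stable lines of 2 kinds. The first had been given the retroviral vector pMSCV with the microRNA cluster miR-23b/27b/24, and the second the empty vector pMSCV-puro. Per the series' design, the 2 arrays of a group are repeats of the transfection, and the sample labels say only replicate 1 and 2. Whether each repeat was its own stable line is not known here. The p-values measure the spread between these arrays and may not cover separately derived lines. Cy5 marked the RNA of the cells and Cy3 the Universal Mouse Reference RNA, pooled from mouse cell lines and the same on all 4 arrays. The value of a probe is the log2 ratio of Cy5 over Cy3, so that 0 means the same signal as the reference, and a log2 fold change is the mean of the miR-23b/27b/24 arrays minus that of the vector arrays.

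Tight junctions seal the space between neighbouring epithelial cells near their apical side. Claudins are multi-pass membrane proteins that form the strands of the seal and set which ions pass, and occludin (Ocln) and the junctional adhesion molecule JAM-A (F11r) sit beside them in the membrane. On the inner face, the zonula occludens proteins Tjp1 (ZO-1) and Tjp3 (ZO-3) bind the claudin tails and tie them to actin. In mammary epithelium the seal keeps milk in the lumen, and low levels of Cldn3, Cldn4 and Cldn7 define the claudin-low class of human breast tumours. MicroRNAs pair with messages through their seed, bases 2 to 8 of the mature strand. Mature 3p strands of the cluster, from the RefSeq table (GRCm38.p6), are shown with the seed in capitals, because they are products of what the miR-23b/27b/24 cells were given. Both lie on mouse chromosome 13.
mmu-miR-27b-3p: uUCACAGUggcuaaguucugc
mmu-miR-24-3p: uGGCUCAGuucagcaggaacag
The third, miR-23b-3p, is named only. The seeds differ, so these microRNAs form no shared-seed group. The DNA complements of the seeds, ACTGTGA and CTGAGCC, were found in 0 of the 12 member probes, against 0.826% and 0.42% of all 41174 probes. A probe covers only 60 bases of its transcript, so this says nothing of the rest of the message.

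Of the 8 members that could be tested, 6 fell in miR-23b/27b/24 cells and 0 rose. The falls were over 4-fold for Cldn3, Cldn4, Cldn7, Ocln and Tjp3, and 1.94-fold for F11r. The order among the first 5 changed with the processing: with Feature Extraction's own log ratio, Ocln had -3.39, Tjp3 -2.91 and Cldn3 -2.49. Cldn6 and Tjp1 were not called, and Cldn1 was too dim to test. Across all 20500 genes tested, 9.41% were called in either direction and 4.64% were called lower (limma, Benjamini-Hochberg adjusted p under 0.05). In 5 members the fall was at least 2-fold, which 3% of all genes showed. The median log2 fold change of the 8 members was -2.40, against -0.03 over all genes tested. In the 6 called members both miR-23b/27b/24 arrays lay below both vector arrays, an order that 32.3% of all genes showed in the same direction and 59.8% in one direction or the other. The count depends on the background step: outlying local backgrounds were replaced by the array's median, a choice made with its effect on the calls known, and with every local background as measured only 2 members, Cldn7 and Tjp3, passed. It was 4 without miR-23b/27b/24 replicate 1, and 4 of 6 testable members where a probe had to be bright in both channels on all arrays.

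**Figure D1:**
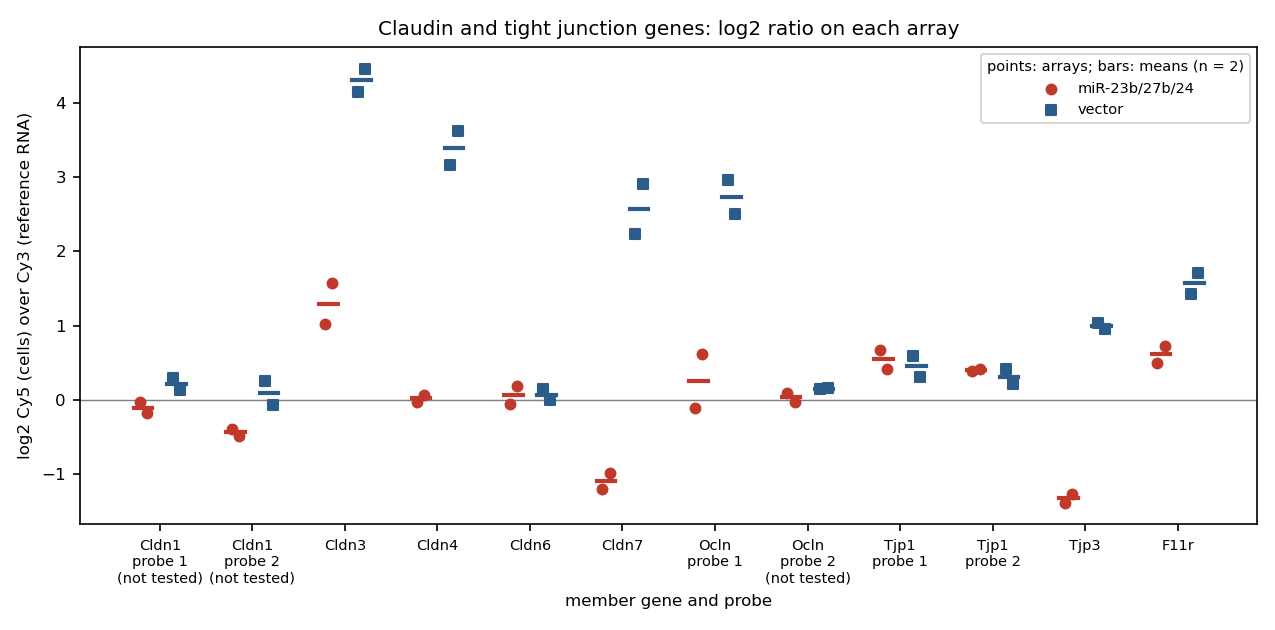
The vertical axis gives the log2 ratio of Cy5 (cells) over Cy3 (reference RNA) for each of the 12 probes of the 9 genes; red circles are the 2 miR-23b/27b/24 arrays, blue squares the 2 vector arrays and bars the group means. Cldn3, Cldn4, Cldn7, Ocln probe 1 and Tjp3 show group means over 2 log2 units apart with no overlap, F11r means 0.95 apart, and Cldn6 and both Tjp1 probes overlap.

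Cldn7 (claudin-7), a strand protein of epithelia that is also found along the basolateral side, fell. Its probe lies at chr11:70048852-70049161 (mm7, plus strand), a span of 310 bases for a 60-base probe, so it crosses an intron. Where in a transcript the other probes lie was not analysed here. The log2 ratio of Cldn7 was -1.21 and -0.98 on the miR-23b/27b/24 arrays and 2.23 and 2.91 on the vector arrays. The Cldn7 message was below the reference in the miR-23b/27b/24 cells and above it in vector cells. The log2 fold change was -3.67 ± 0.26 (SE, with 2 arrays in each group, 95% interval -4.33 to -3.00, limma adjusted p = 0.00507), a 12.7-fold difference. In raw Cy5 signal Cldn7 had 274 and 319 units in miR-23b/27b/24 cells and 4022 and 6362 in vector cells. The Cy3 signal of its spots was 1.32 times as high on the vector arrays. Cldn7 was called under all 17 alternative settings, with values from -4.00 to -3.33.

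Cldn4 (claudin-4), which seals the paracellular path to sodium and serves as a receptor for a clostridial toxin, was not well above background on either miR-23b/27b/24 array. Its probe lies at chr5:133916757-133916816 (mm7, minus strand). The log2 ratio of Cldn4 was -0.02 and 0.07 in miR-23b/27b/24 cells and 3.16 and 3.63 in vector cells, and the raw Cy5 signal 38.5 and 58.9 against 588 and 978. The dim values carry only a bound, so with replaced backgrounds the mean of Cldn4 was at least 10.3-fold lower. The bound sets the vector mean of the normalized Cy5 signal against, on each miR-23b/27b/24 array, either the signal of the probe or the dimmest signal that passed as well above background, whichever is higher. The fitted log2 fold change was -3.37 ± 0.19 (SE, with 2 arrays in each group, limma adjusted p = 0.00341). With every local background as measured Cldn4 had -1.76 (limma adjusted p = 0.243), and with Feature Extraction's own log ratio -5.13.

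Cldn3 (claudin-3), the third claudin that fell, is a strand protein co-expressed with Cldn4 in many glands. Its probe lies at chr5:133958589-133958648 (mm7, plus strand). The log2 ratio of Cldn3 was 1.02 and 1.57 in miR-23b/27b/24 cells and 4.15 and 4.46 in vector cells. Unlike Cldn7, Cldn3 stayed above the reference in both groups, and it was well above background on every array. The log2 fold change was -3.01 ± 0.23 (SE, with 2 arrays in each group, 95% interval -3.62 to -2.40, limma adjusted p = 0.00626), an 8.05-fold difference. With every local background as measured it was -2.34 (limma adjusted p = 0.0850).

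The reference channel of the Cldn3 probe differed between the groups, although the reference RNA was the same. Its Cy3 signal was 124 and 115 units on the miR-23b/27b/24 arrays and 414 and 463 on the vector arrays, 3.67 times as high. The Cy5 signal of Cldn3 was 238 and 353 units in miR-23b/27b/24 cells and 6527 and 8407 in vector cells, 25.3 times as high. After subtracting the local background, the Cy3 ratio of vector over miR-23b/27b/24 was 4.34 for Cldn3. Over the 29522 probes well above background in Cy3 on all arrays its median was 1.11 (10th to 90th percentile 1.02 to 1.21), and over the 242 of these that fell by more than 4-fold it was 1.19 (1.09 to 1.71). The ratio that yields the 8.05-fold difference thus holds a higher denominator on the vector arrays. With Cy5 alone, quantile normalized between arrays, the log2 fold change of Cldn3 was -4.52. What raised the Cy3 signal was not tested. For Cldn4 and Ocln the raw Cy3 signal was 1.497 and 1.488 times as high on the vector arrays, and for the other tested members 1.03 to 1.32 times. After subtracting the local background the ratio was 2.37 for Cldn4 and 1.86 for Ocln, both above the 90th percentile of 1.71. For the other tested members it was 1.025 to 1.33. The Cldn4 and Ocln spots were dim in Cy3.

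**Figure D2:**
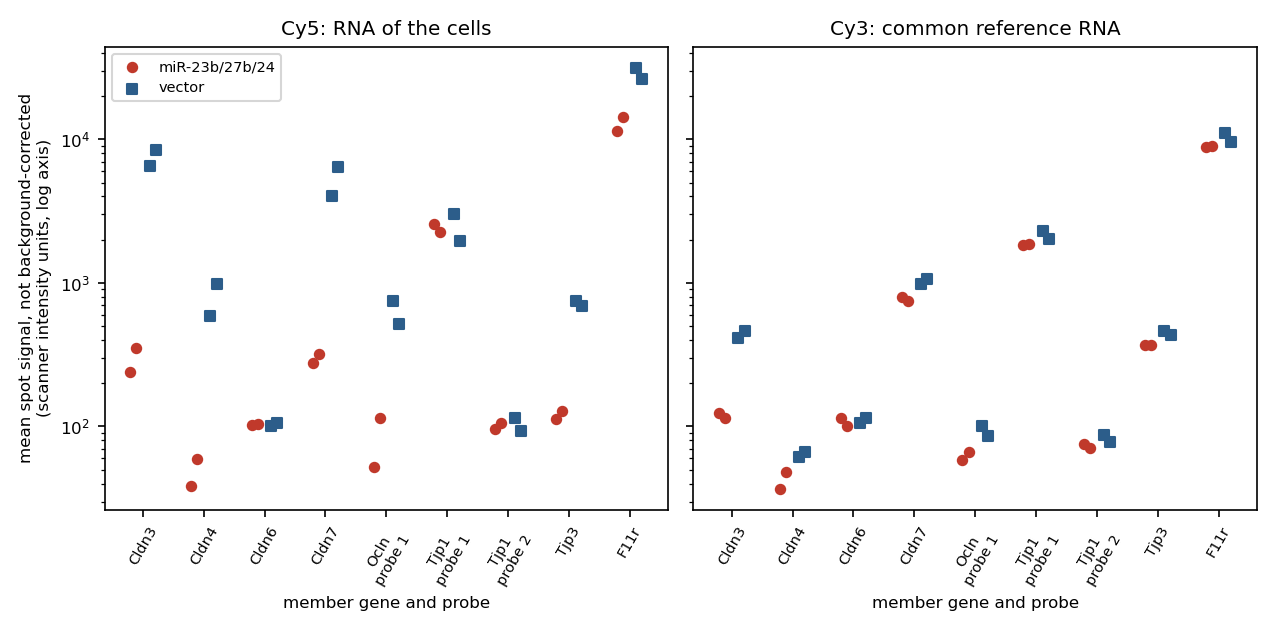
Mean spot signal in scanner units on a log axis, without background correction, for the 9 probes kept for testing; left, Cy5 from the cells, right, Cy3 from the common reference RNA, with red circles for miR-23b/27b/24 arrays and blue squares for vector arrays. In Cy5 the groups separate for Cldn3, Cldn4, Cldn7, Ocln, Tjp3 and F11r, while in Cy3 the widest separation is that of Cldn3.

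Cldn3 and Cldn4 are neighbours on chromosome 5, transcribed away from each other, and both fell. The genes around the pair were looked up after the values of the pair were known. On the Cldn4 side Mettl27 had a log2 fold change of -0.62 (limma adjusted p = 0.288) and Cldn13, a claudin of rodents, 0.02 (limma adjusted p = 0.947). On the Cldn3 side Abhd11 had -0.54 (limma adjusted p = 0.0564) and Stx1a 0.58 (limma adjusted p = 0.0806). None of these 4 neighbours was called. Of the 4 genes around Cldn7 on chromosome 11, Ybx2, Slc2a4, Elp5 and Ctdnep1, none was called either, with values from -0.33 to 0.13. Around Cldn6, itself not called, Hcfc1r1 fell by 1.42 (limma adjusted p = 0.0108), while Tnfrsf12a at -0.45 and Cldn9 at -0.30 were not called.

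Cldn6 (claudin-6), mainly known from embryonic epithelium and germ cell tumours, did not separate the groups. Its log2 ratio was -0.05 and 0.18 in miR-23b/27b/24 cells and 0.14 and -0.0040 in vector cells, with a raw Cy5 signal of 101 to 105 units on all 4 arrays. The log2 fold change was -0.0046 (95% interval -0.38 to 0.38, limma adjusted p = 0.988). The interval leaves room for changes of up to about that size in either direction, and excludes falls like those of Cldn3, Cldn4 and Cldn7 on this scale. The probe lies at chr17:21861935-21861994 (mm7, plus strand).

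Cldn1 (claudin-1), needed for the skin barrier in mice, was close to background in both groups. Its probes, at chr16:26020464-26020523 and chr16:26018826-26018885 (mm7, minus strand), were well above background on vector replicate 1 alone and so did not pass the filter. The log2 ratios of the first probe were -0.04 and -0.17 in miR-23b/27b/24 cells and 0.29 and 0.13 in vector cells, and those of the second -0.39 and -0.48 against 0.26 and -0.07. Without the filter the log2 fold change of Cldn1 was -0.53 ± 0.15 (SE, with 2 arrays in each group, limma adjusted p = 0.117), and no difference was called. In the values deposited by the authors, the first probe had -0.70 and -1.38 in miR-23b/27b/24 cells and 1.05 and 0.70 in vector cells. The second had -0.81 and -1.05 against 1.89 and 0.81. Both probes were near background, so the size of a difference cannot be read from them.

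No other tested claudin was called. Of 21 further claudin family genes 17 were on the array and 11 passed the filter. Several were dim, among them Cldn2 at 70.1 to 96.3 and Cldn22 at 66.2 to 82.1 raw Cy5 units, where a fall could hardly show. Of the 11 genes 0 were called, against 9.41% of all genes, and with so few genes 0 is near that share. Their median log2 fold change was -0.19, with a range from -0.95 to 0.08. At an unadjusted p under 0.05 in limma, 2 of the 11 passed, a threshold that 27.7% of all genes passed. The lowest values were those of Cldn15 (-0.95 ± 0.43, limma adjusted p = 0.242), Cldn23 (-0.90 ± 0.24, adjusted p = 0.0893) and Cldn12 (-0.86 ± 0.24, adjusted p = 0.0916), which were named after their values were seen. In 7 of the 11 genes, these 3 among them, both miR-23b/27b/24 arrays lay below both vector arrays, against 32.3% of all genes.

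Among the other membrane proteins of the junction, occludin fell. Ocln is a protein of the MARVEL family that joins claudin strands at bicellular contacts. The kept probe, at chr13:97585859-97585918 (mm7, minus strand), had log2 ratios of -0.11 and 0.62 in miR-23b/27b/24 cells and 2.96 and 2.50 in vector cells. Its raw Cy5 signal was 52.5 and 115 units against 745 and 518, and the first of these was not well above background. The log2 fold change was -2.48 ± 0.30 (SE, with 2 arrays in each group, 95% interval -3.26 to -1.69, limma adjusted p = 0.0171), a 5.57-fold difference. With every local background as measured Ocln had -1.12 (limma adjusted p = 0.231), and without miR-23b/27b/24 replicate 1 it had -2.11 (limma adjusted p = 0.0735). A second Ocln probe, at chr13:97627594-97628787, was near background on all arrays, with 38.7 and 47.6 Cy5 units in miR-23b/27b/24 cells and 59.9 and 52.2 in vector cells. It showed -0.11 ± 0.11 without the filter (limma adjusted p = 0.633), so the fall of Ocln rests on 1 probe.

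F11r (JAM-A), an immunoglobulin-type adhesion protein that recruits polarity proteins to the junction, was bright in both groups. The log2 ratio of F11r was 0.50 and 0.73 in miR-23b/27b/24 cells and 1.42 and 1.71 in vector cells, and the raw Cy5 signal 11390 and 14330 against 31359 and 26347 units. F11r fell by 0.95 on the log2 scale (SE 0.17, with 2 arrays in each group, 95% interval -1.39 to -0.52, limma adjusted p = 0.0369), a 1.94-fold difference. The call was lost with an intensity trend in the prior (limma adjusted p = 0.0679), with every local background as measured (0.0782) and without miR-23b/27b/24 replicate 1 (0.241) or 2 (0.144). The size of the fall hardly moved, from -1.12 to -0.81 over all settings. The probe lies at chr1:171433810-171433869 (mm7, plus strand).

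Some further membrane proteins of the junction fell as Ocln did. Of 11 listed, 9 were tested, 5 fell and 0 rose, against 4.64% and 4.77% of all genes. The median log2 fold change was -1.06. The 4 not called were Jam2 (-0.02), Jam3 (-0.03), Ildr2 (-0.05) and Esam (-0.16). Lsr (angulin-1), which draws tricellulin to the points where cells meet at corners, had log2 ratios of -0.51 and 1.13 in miR-23b/27b/24 cells and 4.52 and 4.25 in vector cells. Its log2 fold change was -4.08 ± 0.55 (SE, with 2 arrays in each group, limma adjusted p = 0.0213), and -3.84 with every local background as measured (limma adjusted p = 0.0547). Marveld2, tricellulin itself, was not well above background in miR-23b/27b/24 cells. Its fitted log2 fold change was -2.87 ± 0.16 (limma adjusted p = 0.00341), a 7.31-fold difference. The Cy5 bound came to 8.57-fold, so the smaller, fitted value is the one taken. Marveld2 had -1.81 with every local background as measured (limma adjusted p = 0.0793). A second Marveld2 probe showed a fall of smaller size, by 0.97 on the log2 scale (limma adjusted p = 0.0168 over all probes). Crb3, an apical polarity protein, was at least 8.63-fold lower, again dim in the miR-23b/27b/24 cells (limma adjusted p = 0.00794). The bound holds for replaced backgrounds: with every local background as measured Crb3 had -2.42 (limma adjusted p = 0.0900), and its adjusted p was 0.0654 or 0.0635 in limma without miR-23b/27b/24 replicate 1 or 2. Cxadr, the coxsackievirus and adenovirus receptor, had 2.39 and 2.53 in miR-23b/27b/24 cells and 3.61 and 3.44 in vector cells, and fell by 1.06 (limma adjusted p = 0.0193). Its other probes, at -0.43 and 0.07, were not called, and Cxadr missed the threshold in 5 of the 17 alternatives, at -0.47 with the mean of its probes (limma adjusted p = 0.129). The fifth that fell, Marveld3, the remaining MARVEL protein of the junction, had -1.57 (limma adjusted p = 0.00800).

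The scaffold proteins under the membrane split. Tjp3 (ZO-3), a scaffold found mainly in epithelia, fell, with the smallest SE of the tested members. Its log2 ratio was -1.38 and -1.27 in miR-23b/27b/24 cells and 1.03 and 0.96 in vector cells, with a raw Cy5 signal of 113 and 128 units against 753 and 688. The log2 fold change of Tjp3 was -2.32 ± 0.12 (SE, with 2 arrays in each group, limma adjusted p = 0.00304), a 5.00-fold difference. Tjp3 was well above background on all 4 arrays and was called under all 17 alternatives, with values from -2.96 to -1.98. The probe lies at chr10:81065802-81065861 (mm7, minus strand).

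Tjp1 (ZO-1), a scaffold that is also made in cells without tight junctions, did not separate the groups with either probe. The first probe, at chr7:61154784-61154843 (mm7, minus strand), had log2 ratios of 0.68 and 0.41 in miR-23b/27b/24 cells and 0.59 and 0.31 in vector cells. The second, at chr7:61171235-61171294, had 0.39 and 0.42 against 0.41 and 0.21. The log2 fold changes were 0.09 ± 0.17 (95% interval -0.34 to 0.53, limma adjusted p = 0.776) and 0.09 ± 0.14 (95% interval -0.25 to 0.44, limma adjusted p = 0.717 over all kept probes). A fall of Tjp1 as large as that of Tjp3 lies outside both intervals. The second probe was dim, at 92.7 to 114 raw Cy5 units, so such a fall could not show there at its full size.

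Cgn (cingulin), which links the scaffold to actin and myosin, gave different answers by probe. Its brightest probe was not called at -0.44 ± 0.13 (limma adjusted p = 0.114), and 1 of its other 2 probes fell by 1.53 (limma adjusted p = 0.0106). Cgnl1 (paracingulin) was lower on all 5 probes, from -2.41 to -0.52, of which 4 passed. Its brightest probe had 0.88 and 0.25 in miR-23b/27b/24 cells and 3.03 and 2.91 in vector cells.

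Of the 46 genes listed as plaque and polarity proteins, 44 were tested, 10 fell and 3 rose, with a median log2 fold change of -0.20. Pard6b, an adaptor of the PAR polarity complex, fell by 1.78 (limma adjusted p = 0.00826), with both other probes lower as well. The 3 that rose were Mylk, myosin light chain kinase, by 1.96 (limma adjusted p = 0.0160), Cttn, the actin-binding protein cortactin, by 0.80 (limma adjusted p = 0.0428), and Pard6g, a paralog of Pard6b, by 0.71 (limma adjusted p = 0.0346). Of 3 Mylk probes, 1 was at 0.02. With every local background as measured Mylk had 1.34 (limma adjusted p = 0.173), Cttn 0.80 (0.0761) and Pard6g 0.18 (0.747), and none of the 3 was called without miR-23b/27b/24 replicate 1 or without replicate 2. Cttn was called in 9 of the 17 alternatives. Over the 3 lists of tight junction genes outside the members, 15 of 64 tested genes fell and 3 rose, against 4.64% and 4.77% of all genes. With every local background as measured 3 passed, and without miR-23b/27b/24 replicate 1 or 2 it was 3 or 4.

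**Figure D3:**
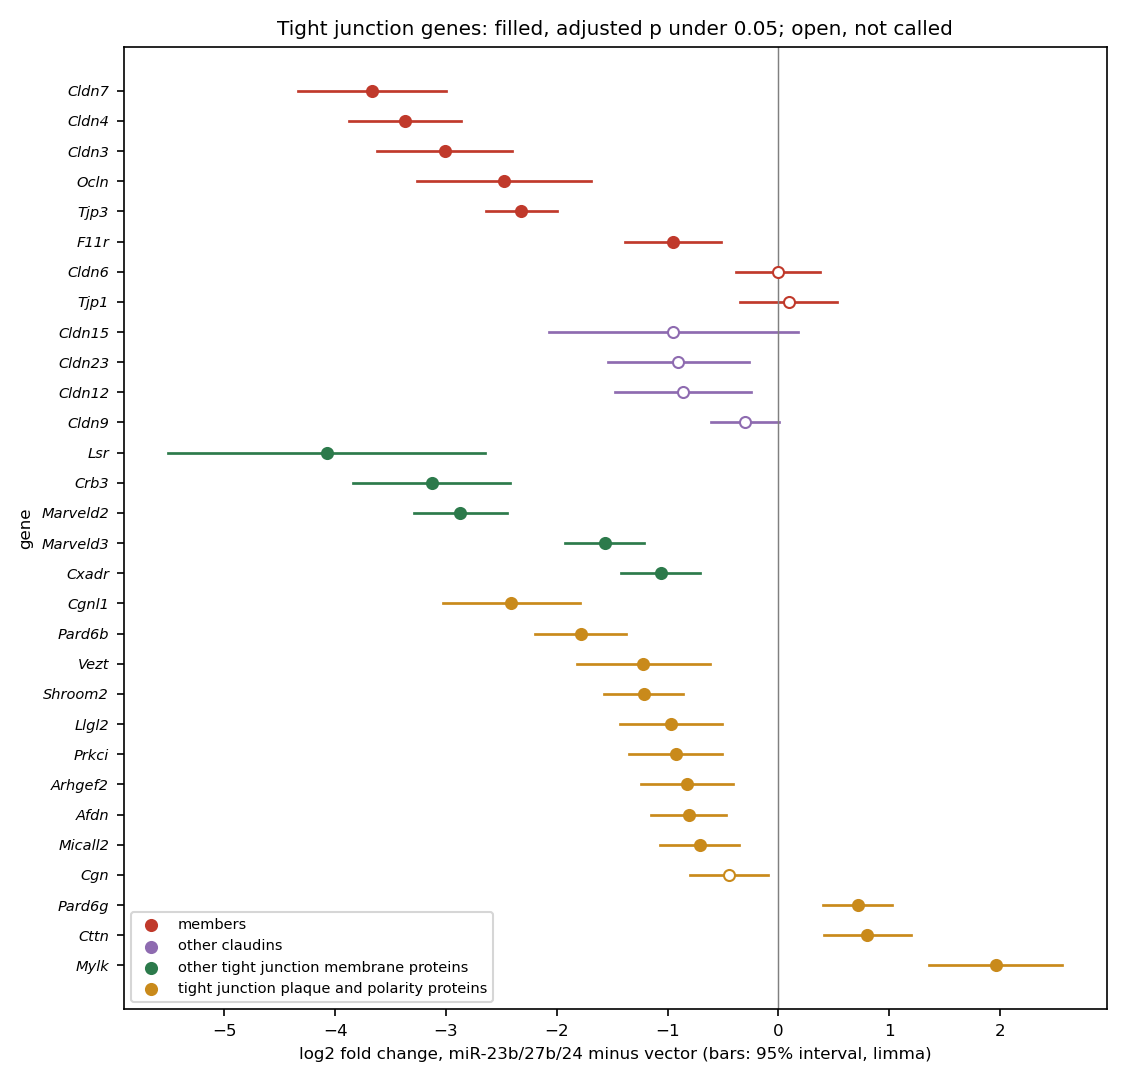
Log2 fold change, miR-23b/27b/24 minus vector, with its 95% interval for the tested members (red) and for further genes of the tight junction lists; filled points passed the adjusted p of 0.05. Members run from -3.67 for Cldn7 to 0.09 for Tjp1, and the 3 filled points right of 0 are Pard6g, Cttn and Mylk.

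**Figure D4:**
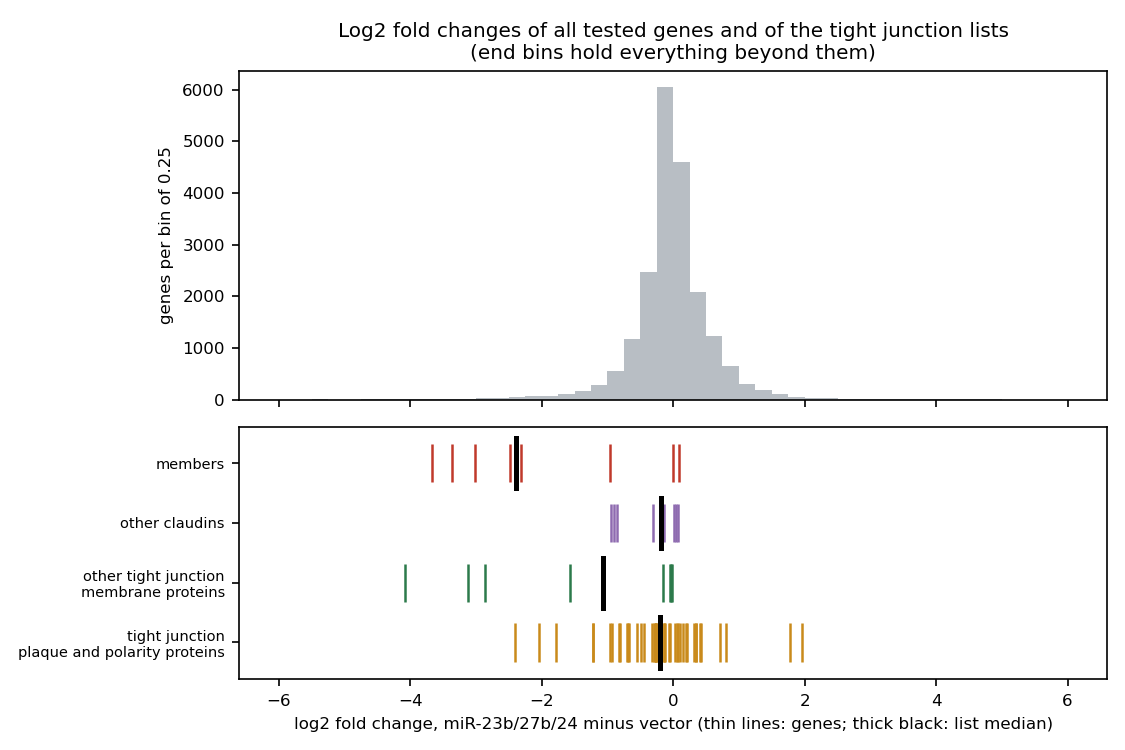
Upper panel, number of genes per bin of log2 fold change over all 20500 genes tested; lower panel, each tested gene of the 4 lists as a thin line and the list median as a thick black line. The median is -2.40 for the members, -0.19 for the other claudins, -1.06 for the other membrane proteins and -0.20 for the plaque and polarity proteins, while all genes centre at -0.03.

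The promoters of the members were read from the RefSeq table (GRCm38.p6), each from 250 bases before to 50 after a transcription start, and 12 such windows matched the 9 genes. They were searched on both strands for CAGGTG, the E-box that Snail and ZEB repressors bind, for GGGCGG, an Sp1 motif, and for AACCNGTT, the motif of grainyhead-like factors. CAGGTG was present in at least 1 window of 7 of the 9 genes and in 9 of the 12 windows, against 20.2% of all 32851 promoters. It was found for all 6 members that fell and for Cldn6, and not for Cldn1 or Tjp1. GGGCGG was present in 9 of the 12 windows, against 35.7% of all, and AACCNGTT in 0, against 2.09%. The member windows held 45.3% to 68.0% G and C, against a median of 52.7% over all promoters. The shares were not adjusted for this. The 2 Ocln windows overlap and share 1 CAGGTG, which is counted in both. A letter match is not evidence of binding. Of the windows, 5 are printed with CAGGTG and GGGCGG in capitals (CACCTG and CCGCCC on the other strand), first 1 for each of the 3 claudins that fell, then those of Cldn6 and Tjp1, which were not called. For Cldn7 the second of 2 windows is shown; the first holds neither motif.
Cldn3 promoter, chr5:134985964-134986263 (plus strand): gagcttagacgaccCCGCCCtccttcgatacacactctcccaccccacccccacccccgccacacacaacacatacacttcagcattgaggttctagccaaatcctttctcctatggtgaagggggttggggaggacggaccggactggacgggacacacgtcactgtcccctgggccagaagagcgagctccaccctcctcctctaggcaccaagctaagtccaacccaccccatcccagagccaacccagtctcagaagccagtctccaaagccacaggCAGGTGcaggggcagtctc
Cldn4 promoter, chr5:134946885-134947184 (minus strand): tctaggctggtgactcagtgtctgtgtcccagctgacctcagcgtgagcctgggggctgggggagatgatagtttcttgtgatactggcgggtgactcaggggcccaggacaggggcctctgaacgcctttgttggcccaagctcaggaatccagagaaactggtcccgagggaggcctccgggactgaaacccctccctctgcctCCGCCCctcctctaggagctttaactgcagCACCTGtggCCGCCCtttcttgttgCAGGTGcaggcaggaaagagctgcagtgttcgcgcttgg
Cldn7 promoter, chr11:69965171-69965470 (plus strand): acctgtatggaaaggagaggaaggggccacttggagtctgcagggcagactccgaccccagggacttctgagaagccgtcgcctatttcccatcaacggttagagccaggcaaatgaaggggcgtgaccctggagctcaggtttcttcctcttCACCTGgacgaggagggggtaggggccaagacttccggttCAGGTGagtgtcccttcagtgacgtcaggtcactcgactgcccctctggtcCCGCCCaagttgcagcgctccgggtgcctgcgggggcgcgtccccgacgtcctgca
Cldn6 promoter, chr17:23679115-23679414 (plus strand): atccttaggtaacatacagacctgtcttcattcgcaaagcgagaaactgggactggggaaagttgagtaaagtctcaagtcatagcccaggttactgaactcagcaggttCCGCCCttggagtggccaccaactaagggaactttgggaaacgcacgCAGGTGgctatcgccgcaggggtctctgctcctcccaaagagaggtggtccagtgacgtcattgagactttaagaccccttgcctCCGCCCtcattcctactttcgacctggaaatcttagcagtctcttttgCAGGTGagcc
Tjp1 promoter, chr7:65371195-65371494 (minus strand): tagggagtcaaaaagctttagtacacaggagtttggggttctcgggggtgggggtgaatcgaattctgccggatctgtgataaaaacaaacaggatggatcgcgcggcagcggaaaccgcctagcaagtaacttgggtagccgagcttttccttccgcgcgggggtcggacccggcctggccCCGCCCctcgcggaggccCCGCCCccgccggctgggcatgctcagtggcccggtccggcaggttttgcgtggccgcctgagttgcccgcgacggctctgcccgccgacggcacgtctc
Cldn3 held 1 CAGGTG close to its start and Cldn4 and the second window of Cldn7 held 2 each, but Cldn6, whose level did not separate the groups, held 2 as well. The match was therefore shared by claudins that fell and by one that was not called.

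Regulators of epithelial genes were taken from a fixed list, which also holds the Snail and ZEB repressors and Twist1. The count and the median below pool all of these. Of 14 tested, 5 fell (Grhl2, Klf5, Esrp1, Esrp2 and Twist1) and 0 rose, with a median of -0.67. Of all genes tested 4.64% fell and 4.77% rose, with a median of -0.03. Grhl2, a grainyhead-like factor known in mice to drive Cldn4, had log2 ratios of -0.64 and -0.15 in miR-23b/27b/24 cells and 3.72 and 3.68 in vector cells, and fell by 4.10 (limma adjusted p = 0.00257), while its other probe was not called at -0.62 (limma adjusted p = 0.0695). Grhl2 had -2.91 with every local background as measured (limma adjusted p = 0.0685). With replaced backgrounds the mean of Esrp1, an epithelial splicing regulator, was at least 5.65-fold lower (limma adjusted p = 0.00949). Esrp1 had -1.43 with every local background as measured (limma adjusted p = 0.270), and its adjusted p was 0.0779 or 0.0681 in limma without miR-23b/27b/24 replicate 1 or 2. Twist1, named above among those that fell, had -2.96 ± 0.54 (SE, with 2 arrays in each group, limma adjusted p = 0.0405). Its log2 ratios were -0.93 and -2.56 in miR-23b/27b/24 cells and 1.25 and 1.16 in vector cells. Twist1 was not read under the alternative settings. None of the listed Snail and ZEB repressors was called. Zeb1 had -0.06 (limma adjusted p = 0.820) and Zeb2 1.03 ± 0.31 (limma adjusted p = 0.112). Snai1 had 0.36 (limma adjusted p = 0.362) and Snai2 -0.14 (limma adjusted p = 0.685). For Zeb2, 2 of 5 probes passed when every probe was tested on its own, both higher, and it was also called without vector replicate 1 and with the mean of its probes. Ovol1, a repressor of Zeb1, had -0.29 (limma adjusted p = 0.254), and its other probe fell by 0.89 (limma adjusted p = 0.0454 over all kept probes).

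Markers of the cell types a culture could hold were read beside these values. Of 10 mammary epithelial markers 9 were well above background on every array. The count was also 9 for the 10 leukocyte markers, and 7 to 10 by array for the 10 endothelial ones. Over all probes 69.9% to 74.8% passed, so these counts do not tell cell types apart. Of 9 epithelial markers tested, 4 fell (Krt19, Epcam, Cdh1 and Krt14) and 0 rose, against 4.64% and 4.77% of all genes. Krt8 had 0.30 (limma adjusted p = 0.607) and Krt18 -1.40 (limma adjusted p = 0.0650). The summed Cy5 signal of the epithelial list was 112488 to 145742 units in miR-23b/27b/24 cells and 183522 to 332886 in vector cells. Krt8 and Krt18 made up most of it. Raw Krt18 signal was 57770 and 87650 units against 222100 and 124700, and raw Krt8 signal 48630 and 48610 against 70100 and 29150. Of the fibroblast markers 9 of 10 were above background and 0 of 9 tested were called (2 at an unadjusted p under 0.05 in limma, both higher). Their sums were 117130 to 124494 against 85457 to 210290. Vim made up most of these sums, with a raw signal of 107600 and 101400 units against 193700 and 69900. The leukocyte list had sums of 2949 to 3024 against 4144 to 4969 with 1 of 9 called, Cd68, and the endothelial list 1121 to 1174 against 1830 to 2784 with 1 of 7 called, Eng, both lower. Over all genes tested 9.41% were called in either direction. Ptprc, which defines leukocytes, and Pecam1, which defines endothelium, had log2 fold changes of 0.02 and -0.05. Both probes were dim on all arrays, at 75.6 to 79.9 and 65.3 to 67.5 raw Cy5 units, so these values say little. The part of cell makeup in the falls was not tested, and in these bulk samples fewer cells of a type and less RNA per cell cannot be told apart.

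The genes whose pattern was most like that of Tjp3, the called member with the smallest p among those bright on all 4 arrays, were found over 14437 candidates by the root mean square distance of log2 ratios centred on each gene's mean over 4 arrays. Among the nearest were Eng (0.0548) and Tmem159 (0.0684). Eng, a co-receptor of the TGF-beta family, had -1.39 and -1.32 in miR-23b/27b/24 cells and 1.07 and 0.85 in vector cells.

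**Figure D5:**
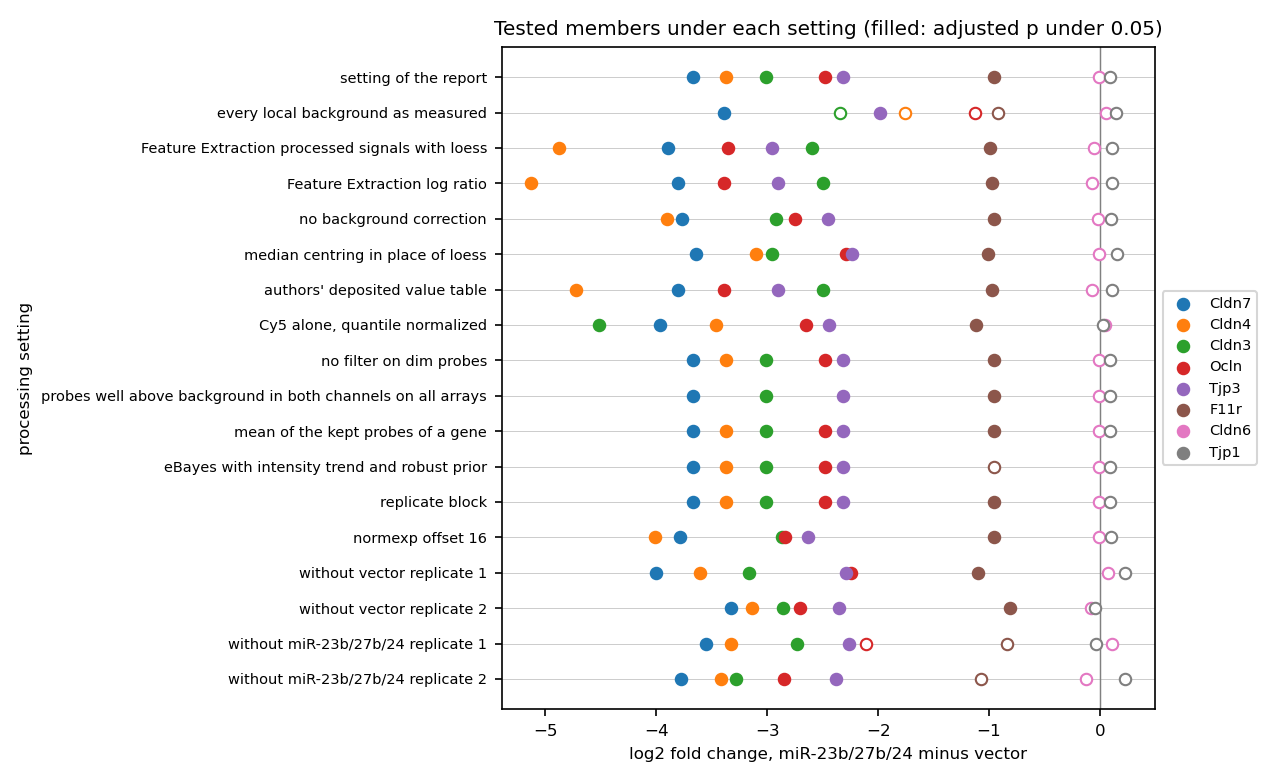
Log2 fold change of the 8 tested members, miR-23b/27b/24 minus vector, under the report's setting and 17 alternatives, one per line; filled points passed an adjusted p of 0.05. Cldn7 and Tjp3 stay filled in every line, Cldn3, Cldn4, Ocln and F11r are open with every local background as measured, and Cldn6 and Tjp1 stay close to 0.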

How the data were processed

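RNA of the cells (Cy5) and the common reference RNA (Cy3) were read on 1 slide in 1 scan, with no dye swap, per the labels' protocols and the file headers. Per the file headers, spots were quantified by Agilent Feature Extraction 9.5.3.1 into intensity values (mean signal, local background) and a log10 ratio of processed signals. The value table deposited by the authors holds log2 ratios: 87.3% to 87.8% of its values lay within 0.001 of the Feature Extraction ratio centred on each probe's median, with column medians of 0.0221 and -0.0149 for miR-23b/27b/24 and 0.0133 and -0.0172 for vector. Its direction is Cy5 over Cy3.

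The analysis used R 4.3.3 with limma 3.58.1. Local backgrounds marked as outliers (1782 to 1976 per array in Cy5) were replaced by the array median, followed by normexp (offset 50) and loess without control spots. Spots marked as outliers or controls were dropped and repeated spots averaged. The filter kept 30080 probes that were well above background in Cy5 throughout 1 group or both, and the brightest stood for its gene. The fit was lmFit with eBayes (prior degrees of freedom 2.83, residual 2), and p-values had Benjamini-Hochberg adjustment over 20500 genes, or over all kept probes where probes of a gene are compared. The test was checked on simulated data.

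Cy5 was well above background for 69.9% to 74.8% of the 41174 probes of an array, and the number of arrays limits the precision. Log2 ratios correlated across genes, which are not independent replicates, at 0.952 within miR-23b/27b/24, at 0.887 within vector and at 0.629 to 0.725 between groups. A RefSeq table (GRCm38.p6) named 22951 probes by accession, 6659 by symbol and 3109 by synonym, and 8455 kept their deposited name. Probe coordinates are those of the files (mm7). The longest run of bases shared by any 2 of the 12 member probes was 10.

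The members, lists and treatment of outlying backgrounds were chosen with earlier results of these data known. Named genes are all members, up to 6 called genes per direction with the largest change over the 3 tight junction lists, a fixed set of list genes and regulators, and the 3 genes nearest in pattern to Tjp3. Some genes that this rule names are not reported here. Others were named after their values were seen. Alternatives covered background, normalization, filter, probe, prior, the replicate number as a block and the omission of single arrays. The replicate numbers gave a correlation of 0.0465 over 2 pairs and so were not taken as pairing.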

Additional observations from a re-analysis of the deposited data

How the results depend on the processing

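The setting that moved the members most was every local background as measured: 2 members, 3 further tight junction genes and 635 of all genes were then called, against 6, 18 and 1929. Cldn3, Cldn4, Ocln and F11r kept their direction there but missed the threshold, at -2.34, -1.76, -1.12 and -0.92. The intensity trend with a robust prior left F11r at -0.95, past the threshold no longer. Median centring in place of loess gave 1263 genes over the array. With the replicate number as a replicate block, 6 members, 11 further tight junction genes (1 higher, 10 lower) and 1740 genes were called. The numbers are not known to pair the samples.

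Leaving out 1 array gave 4 to 6 members, 3 to 22 further tight junction genes and 214 to 4584 genes, with the lone array assumed to vary like the other group. The low end of all genes came without miR-23b/27b/24 replicate 1 (214) or 2 (236) and the high end without vector replicate 1 (4584). Ocln lay between -2.85 and -2.11 and F11r between -1.10 and -0.81, neither of them changing direction. The uncalled members crossed 0: Cldn6 had 0.0555 with every background as measured and 0.0497 with Cy5 alone, and -0.122 to 0.113 without 1 array (0.0687 without vector replicate 1). Tjp1 had -0.044 to 0.231 without 1 array, including -0.0375, and its other probe -0.0079 to 0.1901. Ovol1 had 0.131 with every background as measured, Zeb1 0.0219 with median centring and -0.145 to 0.0245 without 1 array, and Snai2 -0.333 to 0.0614 without 1 array. All of these reversals were in genes that no setting called. The causes were not tested.

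A filter for both channels on every array left 4 members called and no value for Cldn4, Ocln, Marveld2, Crb3 and Esrp1. Dim signal limits Cldn1, Cldn4, Cldn6, Ocln and the second Tjp1 probe. Having 2 arrays per group, not known to come from separate lines, limits every value.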
